A study of Mus musculus with 23 samples.

Results

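The comparison described here sets leptotene/zygotene spermatocytes against spermatogonia of the wild-type mouse testis, across all genes measured. Its members were chosen by title: the 3 wild-type arrays titled as leptotene/zygotene and the 4 wild-type arrays titled as spermatogonia, 7 of the 23 arrays of the series. All 20 wild-type arrays came from male F1 mice of the cross C57BL6xDBA2J, aged 10 to 16 weeks, whose testis cells were stained with a Hoechst DNA dye and sorted by flow cytometry. The other wild-type fractions were pre-leptotene (3 arrays), early (1), mid (2) and late (1) pachytene, diplotene (2) and round spermatids (4). Spo11-/- mice of the same age range gave 1 leptotene/zygotene, 1 spermatogonia and 1 pre-leptotene array, each from cells pooled over several animals and 2 collections. Spo11 encodes the enzyme that cuts DNA to start meiotic recombination, and spermatocytes without it do not complete meiotic prophase. By their labels the wild-type arrays are biological replicates, and how many mice each one holds is not given in the sources used here.

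Spermatogonia are the mitotically dividing germ cells of the testis. They give rise to pre-leptotene cells, which replicate their DNA for the last time, and then to leptotene and zygotene spermatocytes, in which chromosomes condense along an axis, programmed breaks are made and repaired on the homologous chromosome, and the homologues pair. In pachytene spermatocytes a later programme starts, which includes the PIWI-interacting RNA (piRNA) pathway that silences transposons and many genes for the sperm that are yet to form.

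Levels are given as log2(intensity + 1), written log2 below, and changes as the leptotene/zygotene mean minus the spermatogonia mean on that scale ± SE. The words rose and fell are kept for genes with a change of at least 1 in size and a limma p below 0.05 after Benjamini-Hochberg adjustment over the whole table. Of 13087 genes tested, 398 passed (3.04%), 200 of them higher (1.53%) and 198 lower (1.51%) in leptotene/zygotene. The median change of all genes tested was 0.02, and 2199 genes had an unadjusted p below 0.05. The arrays of the fractions did not overlap for 1580 genes (12.1%), which included 370 of the 398. Median intensity over all probe sets, on the linear scale and not as log2, ran from 11.43 to 11.78 over the leptotene/zygotene arrays. Over the spermatogonia arrays it ran from 11.15 to 12.17. The estimate of spread came from all 20 wild-type arrays; in a fit on the 7 arrays alone, 5 genes were higher and 12 lower, with 1682 at an unadjusted p below 0.05. The number of calls also depended on single arrays: it fell to 25 genes higher and 15 lower without leptotene/zygotene array 3, and to 29 and 17 without array 2, while 486 and 549 passed without spermatogonia array 4. Without spermatogonia array 1, 65 were higher and 77 lower, and without spermatogonia array 3, 71 were higher and 154 lower. Leaving out leptotene/zygotene array 1 gave 282 higher and 110 lower, and leaving out spermatogonia array 2 gave 182 higher and 122 lower. Between 395 and 398 of the 398 genes were tested in each of these fits, and all of those kept their sign. A set of 28 genes, 16 higher and 12 lower, passed whichever of the 7 arrays was left out.

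The labels were first set against genes that define each fraction. Genes of spermatogonial stem and progenitor cells were not higher on the arrays labelled spermatogonia: all 15 measured had a change above 0 and none passed the test (median 0.67, against 0.02 over all genes). Zbtb16, a transcription factor that maintains spermatogonial stem cells, was at 10.54, 10.07 and 9.96 in leptotene/zygotene, against 9.97, 8.28, 8.53 and 10.57 in spermatogonia. Its fractions overlapped (0.85 ± 0.68, adjusted p = 0.628). Gfra1, the receptor for the niche factor GDNF, was at 6.87, 6.86 and 7.0 in leptotene/zygotene and at 6.86, 5.71, 6.25 and 7.54 in spermatogonia. Kit, the receptor of differentiating spermatogonia, was at 10.64, 12.22 and 11.89 in leptotene/zygotene, against 10.60, 10.71, 11.48 and 10.98 in spermatogonia (0.64 ± 0.43, adjusted p = 0.529). Neither gene separated the fractions. Of 14 genes of spermatogonial differentiation none passed, with a median of 0.27.

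The meiotic genes Stra8 and Dmc1 were also present at high levels on both sides. This did not hold for every meiotic gene: Meiob, described below, averaged 4.12 in spermatogonia. Stra8, which carries the retinoic acid signal into meiosis, was at 12.54, 12.02 and 12.29 in leptotene/zygotene, against 11.46, 10.79, 10.95 and 12.29 in spermatogonia (0.91 ± 0.79, adjusted p = 0.664). The highest spermatogonia array lay within the leptotene/zygotene range. Dmc1, the meiosis-specific recombinase, was at 8.58, 9.28 and 9.0 in leptotene/zygotene, against 8.97, 9.71, 10.24 and 9.21 in spermatogonia (-0.58 ± 0.33, adjusted p = 0.435). The arrays labelled spermatogonia thus overlapped leptotene/zygotene in a meiotic recombinase transcript, and none of the 15 listed stem and progenitor genes was higher in them by the test.

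**Figure D1:**
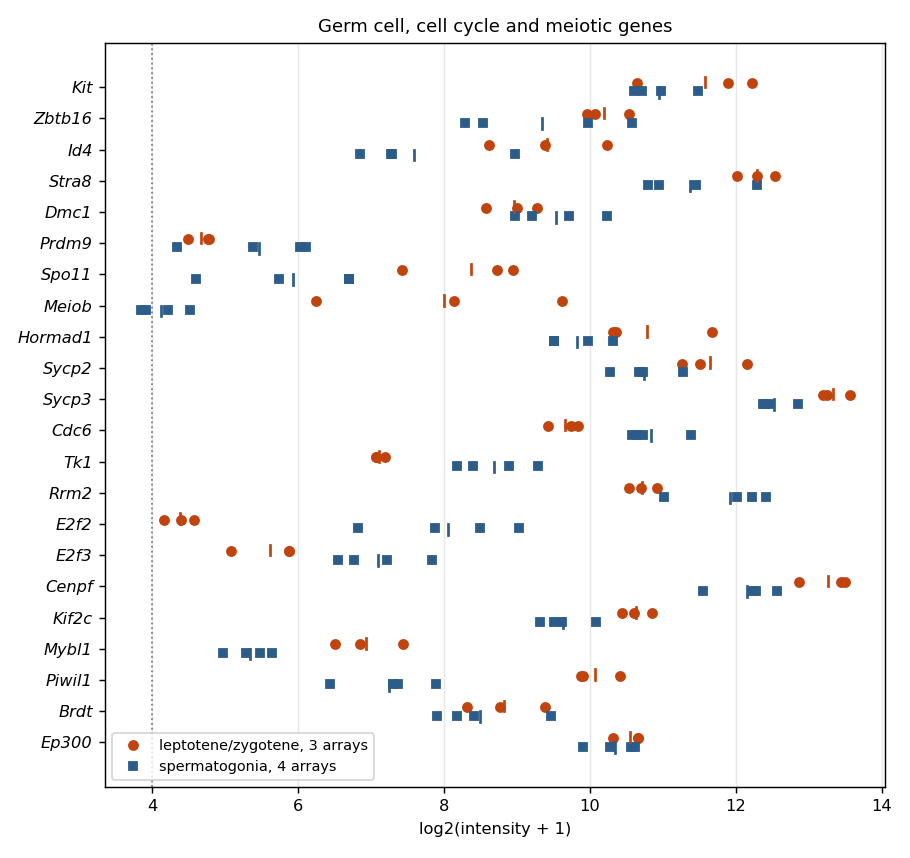
Log2(intensity + 1) of 22 germ cell, cell cycle and meiotic genes on the 3 leptotene/zygotene arrays (orange circles) and the 4 spermatogonia arrays (blue squares); the short vertical lines are means and the dotted line is log2 4. Kit, Zbtb16, Stra8, Dmc1, Brdt and Ep300 overlap between fractions, whereas Piwil1, Meiob, E2f2 and Tk1 do not.

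The largest rise was that of Cers3, a ceramide synthase that makes the very long chain ceramides of germ cells. It was at 10.15, 11.26 and 10.15 in leptotene/zygotene, against 4.24, 6.69, 4.73 and 5.41 in spermatogonia. All leptotene/zygotene arrays lay above all spermatogonia arrays, and the difference was 38.1-fold (5.25 ± 0.78, adjusted p = 0.00414). Cers3 went on to 13.61 in mid-pachytene. Glipr1l2, of the family of secreted CAP proteins, averaged 9.97 ± 0.58 in leptotene/zygotene (SD, n = 3) and 5.99 ± 0.48 in spermatogonia (SD, n = 4), a difference of 3.98 ± 0.58 (adjusted p = 0.0037). Fam181a was at 5.68, 5.6 and 6.90 in leptotene/zygotene, against 2.61, 2.83, 2.15 and 3.23 in spermatogonia. Since every spermatogonia array lay below log2 4, the level of the filter, its change is given as a bound of at least 2.06 (adjusted p = 0.000196).

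Of the other largest rises, Mgat4d, which encodes a glycosyltransferase-like protein of the testis, averaged 7.60 ± 0.68 in leptotene/zygotene and 3.88 ± 1.07 in spermatogonia (3.72 ± 0.64, adjusted p = 0.0107). Chst1, a carbohydrate sulfotransferase, was at 8.58, 9.94 and 8.49 in leptotene/zygotene, against 5.99, 6.73, 5.72 and 5.83 in spermatogonia (2.93 ± 0.45, adjusted p = 0.00478). B3galnt1, which adds N-acetylgalactosamine to glycolipids, changed by 2.77 ± 0.54, and Uggt2, a glucosyltransferase of the endoplasmic reticulum that marks misfolded glycoproteins, by 2.93 ± 0.73. Tmem30c, related to the subunits of lipid flippases, rose by 3.01 ± 0.61, the transporter gene Abcc12 by 2.80 ± 0.51 and the phosphodiesterase gene Pde1c by 2.76 ± 0.56. Ccdc89 rose by 2.98 ± 0.64. For each of these 8 genes the arrays of the fractions did not overlap. Cers3, Glipr1l2, Fam181a, Chst1 and Piwil1 (described below) were the 5 of the 15 largest rises that passed whichever array was left out, with an adjusted p of at most 0.0336. The call of Mgat4d ended without leptotene/zygotene array 3 (adjusted p = 0.064) and that of B3galnt1 without array 2 (0.0861). Abcc12 missed the threshold without leptotene/zygotene array 2 or 3 (highest adjusted p 0.0744), Tmem30c (0.103) and Pde1c (0.0833) also without spermatogonia array 1, Ccdc89 (0.135) also without spermatogonia array 1 or 3, and Uggt2 (0.182) also without spermatogonia array 1, 2 or 3.

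**Figure D2:**
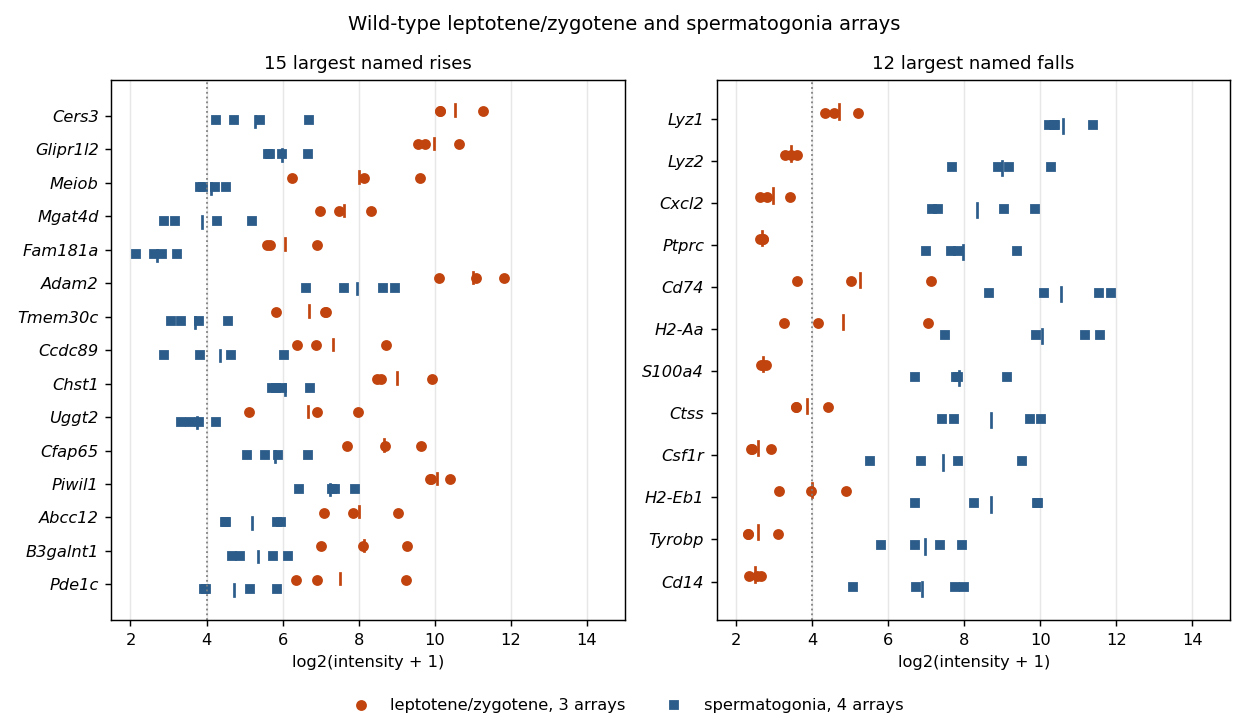
Log2(intensity + 1) of the 15 largest named rises (left) and the 12 largest named falls (right) on the 3 leptotene/zygotene arrays (orange circles) and the 4 spermatogonia arrays (blue squares); short vertical lines are means and the dotted line is log2 4. No gene overlaps between fractions, by the rule that chose them, and most of the falls lie near or below log2 4 in leptotene/zygotene.

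The rises were followed through the other fractions, whose arrays did not take part in the contrast. All wild-type arrays did share in the estimate of spread, the choice of probe set and the filter, so the later levels are a description. With the filter on the 7 arrays of the contrast, 199 of the 200 genes still passed as higher. The median log2 level of the 200 genes was 5.52, 6.14, 5.10 and 5.97 on the spermatogonia arrays, 5.35, 6.07 and 5.56 on the pre-leptotene arrays and 7.10, 7.68 and 8.12 on the leptotene/zygotene arrays. It then stood at 9.04 in early pachytene, 10.04 and 10.37 in mid-pachytene and 10.21 to 10.47 in round spermatids. The pre-leptotene mean lay nearer to spermatogonia than to leptotene/zygotene for 181 of the 200 genes (90.5%, against 56.0% of all genes tested). Most of these genes were thus still near their spermatogonial level in pre-leptotene, and had not reached their later level in leptotene/zygotene. Of the 198 genes that fell, 178 had a pre-leptotene mean nearer to leptotene/zygotene, against 5757 of all 13087 genes tested. Both sets were chosen on the spermatogonia and leptotene/zygotene values, so these counts are a description. The median level of the 198 was 6.38, 6.48 and 6.09 in pre-leptotene and 6.07, 5.77 and 5.93 in leptotene/zygotene. It was 8.93, 9.69, 7.96 and 7.68 in spermatogonia and 7.66 to 7.98 in round spermatids.

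**Figure D3:**
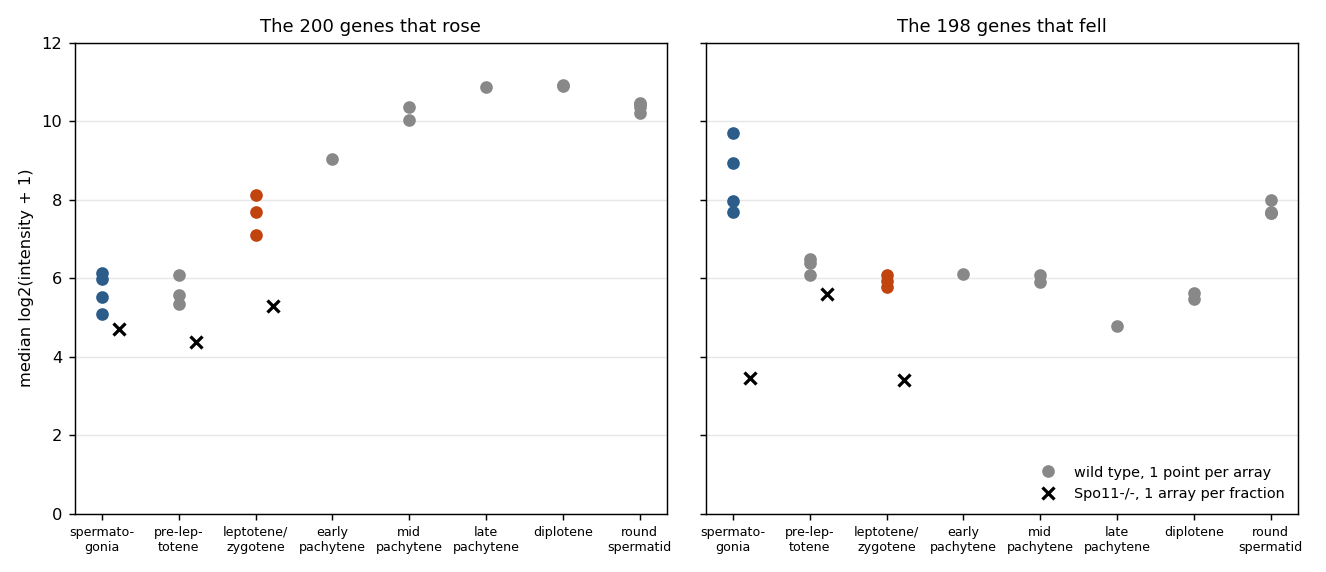
Median log2(intensity + 1), per array, of the 200 genes that rose (left) and the 198 that fell (right), from spermatogonia to round spermatids; blue and orange points are the spermatogonia and leptotene/zygotene arrays that chose the genes, grey points the other wild-type arrays, and crosses the Spo11-/- arrays. The genes that rose reach 10.04 and 10.37 in mid-pachytene, and those that fell stand at 7.66 to 7.98 in round spermatids.

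A smaller set did not go higher after early prophase. Among the 6224 genes whose means in mid-pachytene, diplotene and round spermatids did not exceed the higher of the spermatogonia and leptotene/zygotene means, 22 were higher in leptotene/zygotene (0.353%) and 126 lower (2.02%). That selection uses the arrays compared, so these counts are a description. The genes of the 22 named in this paragraph were chosen after their values were seen. Lad1, a protein of basement membranes, was at 5.54, 5.47 and 4.54 in leptotene/zygotene, against 3.52, 3.07, 3.24 and 3.46 in spermatogonia, and averaged 5.84 in pre-leptotene and 2.99 in mid-pachytene (a bound of at least 1.18, adjusted p = 0.00489). The homeobox gene Nkx1-2 was at 6.04, 5.35 and 5.35 in leptotene/zygotene, against 3.48, 3.28, 3.20 and 4.87 in spermatogonia (1.87 ± 0.33, adjusted p = 0.0108). Both genes separated the fractions and passed whichever array was left out. Genes better known from oocytes and the early embryo were also in the set. Dppa3, a maternal factor that protects methylated DNA after fertilization, was at 5.15, 5.05 and 5.01 in leptotene/zygotene, against 3.37, 2.65, 2.55 and 4.71 in spermatogonia (1.75 ± 0.42, adjusted p = 0.0377). Nobox, a homeobox factor of oocytes, was at 4.56, 4.61 and 4.60 in leptotene/zygotene, against 3.53, 3.15, 3.33 and 3.86 in spermatogonia (a bound of at least 0.59, adjusted p = 0.0178). Neither overlapped between fractions, and both lay close to log2 4. Dppa3 missed the threshold without any 1 of the leptotene/zygotene arrays or of spermatogonia arrays 1, 2 and 3 (highest adjusted p 0.133), and Nobox without leptotene/zygotene array 2 or 3 (0.0801).

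Of 17 piRNA pathway genes 2 rose, where 1.53% of all genes tested did, none fell, and 15 did not pass. All 17 changes were above 0 (median 0.66). Piwil1, the PIWI protein MIWI that carries piRNAs from pachytene onwards, was at 9.91, 10.41 and 9.88 in leptotene/zygotene, against 7.30, 7.37, 6.43 and 7.89 in spermatogonia. The fractions were far apart, at a 7.05-fold difference (2.82 ± 0.29, adjusted p = 0.000124), and pre-leptotene stood at 7.74 ± 0.36 (SD, n = 3). Mybl1 encodes A-MYB, the transcription factor that drives piRNA precursors and many genes of pachytene spermatocytes. It was at 6.51, 6.84 and 7.43 in leptotene/zygotene, against 5.64, 5.29, 4.97 and 5.47 in spermatogonia (1.59 ± 0.33, adjusted p = 0.0207). Its arrays did not overlap, but the call ended without leptotene/zygotene array 2 or 3 or spermatogonia array 3 (highest adjusted p 0.132). Piwil2, the PIWI protein of earlier germ cells, was at 12.32, 12.34 and 12.36 in leptotene/zygotene, within the spermatogonia values of 11.60, 10.64, 11.31 and 12.44 (0.84 ± 0.31, adjusted p = 0.166).

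Since the gene for a MYB factor rose, promoters were searched for the MYB core TAACGG on both strands, in a window from 250 bases before to 50 bases after the start. Of the 200 genes that rose, 152 had a promoter in the RefSeq table (GRCm38.p6), and 18 of these held the core (11.8%). It was in 396 of the 10597 promoters of all genes tested (3.74%) and in 2 of the 147 promoters of genes that fell (1.36%). The 18 included Piwil1, Hspa2, Uggt2 and B3galnt1. They also held Tesmin, a metallothionein-like protein of male germ cells (2.13 ± 0.37, adjusted p = 0.0108), and Spdya, the CDK2 activator that works at telomeres in meiosis (1.71 ± 0.33, adjusted p = 0.0151), both singled out after their values were seen. The 250 bases before the start are shown for 3 of them, 5′ to 3′ on the strand of the gene, to place the core relative to the start. Capitals mark TAACGG, or CCGTTA where it lies on the opposite strand.
Piwil1: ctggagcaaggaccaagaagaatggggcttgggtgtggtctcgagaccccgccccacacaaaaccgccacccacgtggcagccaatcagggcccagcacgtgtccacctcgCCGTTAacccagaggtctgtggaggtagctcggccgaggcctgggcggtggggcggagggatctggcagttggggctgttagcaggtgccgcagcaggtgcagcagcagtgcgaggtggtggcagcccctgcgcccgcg
Hspa2: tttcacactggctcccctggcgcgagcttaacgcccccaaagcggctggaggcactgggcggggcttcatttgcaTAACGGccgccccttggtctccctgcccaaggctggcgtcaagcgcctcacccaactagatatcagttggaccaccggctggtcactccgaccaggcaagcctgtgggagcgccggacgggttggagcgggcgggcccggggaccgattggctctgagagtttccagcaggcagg
Uggt2: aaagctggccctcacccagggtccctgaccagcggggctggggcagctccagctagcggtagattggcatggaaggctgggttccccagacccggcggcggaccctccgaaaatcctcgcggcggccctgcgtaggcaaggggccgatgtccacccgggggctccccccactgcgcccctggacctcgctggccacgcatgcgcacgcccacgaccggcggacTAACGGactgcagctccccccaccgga
The Piwil1 sequence is chr5:128735996-128736245 (plus strand), that of Hspa2 chr12:76404120-76404369 (plus strand) and that of Uggt2 chr14:119099435-119099684 (minus strand). The core begins 139 bases before the start used for Piwil1, 175 before that for Hspa2 and 27 before that for Uggt2. Each of these starts, and each core, lies within the outer coordinates listed for its gene. The other motif searched for MYB, TAACTG, was in 9.87% of the promoters of genes that rose, 12.2% of those that fell and 7.16% of all. The motifs of RFX factors, which work in ciliated cells, were in 7.24%, 5.44% and 4.03% of these promoters for GTTGCTA, and in 5.92%, 1.36% and 4.48% for GTTGCCA. CNCCTCAG, the motif of the meiotic initiators MEIOSIN and STRA8, was in 7.24% of the promoters of genes that rose, 8.84% of those that fell and 9.33% of all. The cyclic AMP element TGACGTCA was in 1.32%, 2.04% and 3.17%, and the NF-Y box CCAAT in 38.2%, 34% and 38.9%. A match in these windows is a description of letters and not of binding.

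Genes of late meiotic prophase and of the sperm tail rose in part. Among the 22 genes of late prophase, 4 rose, where 1.53% of all genes tested did, and the other 18 missed the test. The median change of the list was 1.24. Adam2, which encodes the sperm surface protein fertilin beta, was at 10.11, 11.09 and 11.81 in leptotene/zygotene, against 7.62, 8.95, 6.61 and 8.63 in spermatogonia (3.05 ± 0.79, adjusted p = 0.0482). Hspa2, the testis HSP70 needed for meiotic division of spermatocytes, was at 11.04, 11.94 and 12.50 in leptotene/zygotene, against 9.31, 10.56, 9.71 and 10.34 in spermatogonia (1.85 ± 0.39, adjusted p = 0.0217). Neither overlapped. Clgn, a chaperone for sperm surface proteins, rose by 2.20 ± 0.54 (adjusted p = 0.0406), and Aurkc, the Aurora kinase of meiotic cells, by 1.56 ± 0.41 (adjusted p = 0.0479). Pgk2, the glycolytic enzyme of late germ cells, did not follow: it was at 9.93, 9.66 and 11.04 in leptotene/zygotene, against 12.64, 13.63, 11.18 and 10.61 in spermatogonia (-1.80 ± 0.58, adjusted p = 0.104). Leptotene/zygotene array 3 had the highest level of this list, a median of 11.09, against 9.45 and 9.65 on arrays 1 and 2 and 8.24 to 8.97 in spermatogonia, and the part of that array in these rises was not tested. Without it, or without leptotene/zygotene array 2 or spermatogonia array 1 or 3, no gene of the list passed, and Aurkc also missed the threshold without leptotene/zygotene array 1 or spermatogonia array 2. The highest adjusted p was 0.228 for Adam2, 0.133 for Hspa2, 0.206 for Clgn and 0.253 for Aurkc.

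Of 25 genes of motile cilia, the structure that the sperm tail shares, 5 rose and 20 did not pass (median 0.98). The share that rose over all genes tested was 1.53%. Cfap65, needed for flagella, was at 7.68, 8.69 and 9.63 in leptotene/zygotene, against 5.55, 6.68, 5.06 and 5.89 in spermatogonia (2.87 ± 0.54, adjusted p = 0.0139). Rsph1, of the radial spokes, was at 11.35, 12.31 and 13.13 in leptotene/zygotene, against 9.03, 10.50, 8.43 and 10.28 in spermatogonia (2.70 ± 0.60, adjusted p = 0.0268). Both were separate between fractions and highest on leptotene/zygotene array 3. Ccdc39, which sets the spacing of axonemal parts, rose by 2.05 ± 0.47 and the dynein heavy chains Dnah8 and Dnah1 by 1.98 ± 0.48 and 1.63 ± 0.32. Foxj1, the transcription factor of motile cilia in other tissues, changed by 0.23 and did not pass. Cfap65 missed the threshold without leptotene/zygotene array 2 or 3 (highest adjusted p 0.0833), Dnah1 (0.103) also without spermatogonia array 1, and Rsph1 (0.146), Ccdc39 (0.176) and Dnah8 (0.217) also without spermatogonia array 1 or 3.

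Few genes that act on meiotic chromosomes passed the test. Of 21 genes of strand exchange 1 rose, where 1.53% of all genes tested did. Meiob, which binds single-stranded DNA at meiotic breaks, was at 8.13, 9.62 and 6.25 in leptotene/zygotene, against 4.21, 3.84, 4.51 and 3.91 in spermatogonia. The fractions were apart although the leptotene/zygotene arrays differed by more than 3 units (3.88 ± 0.76, adjusted p = 0.0164, and 0.0867 without leptotene/zygotene array 2). None of 6 genes of break formation passed. Spo11 was at 7.42, 8.73 and 8.95 in leptotene/zygotene, against 4.60, 6.69, 5.74 and 6.69 in spermatogonia; its arrays did not overlap, and its change of 2.44 ± 0.67 missed the threshold (adjusted p = 0.0586). Prdm9, the histone methyltransferase that places breaks, was at 4.77, 4.76 and 4.49 in leptotene/zygotene, against 5.38, 6.03, 6.10 and 4.34 in spermatogonia (-0.79 ± 0.34, adjusted p = 0.246).

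Of 11 genes of the synaptonemal complex and chromosome axis none passed, and the median was 0.25. Sycp3, the main axis protein, was at 13.20, 13.56 and 13.25 in leptotene/zygotene, against 12.40, 12.37, 12.85 and 12.46 in spermatogonia. Its arrays were separate and its adjusted p was 0.046, but its change of 0.82 ± 0.21 was under the minimum of 1. Sycp2, its partner in the axis, changed by 0.90 ± 0.29 (adjusted p = 0.104), and Hormad1, which marks unpaired axes, by 0.96 ± 0.53 (adjusted p = 0.408). Sgo2a, which protects cohesin at centromeres, had a similar pattern (0.91 ± 0.23, adjusted p = 0.0463) and also missed the fold minimum. No gene of crossover formation (7 measured), meiotic cohesin (5) or telomere attachment (7) passed. Of 9 somatic cohesin genes, Nipbl, the cohesin loader, rose by 1.34 ± 0.33 (adjusted p = 0.0388), and it missed the threshold without leptotene/zygotene array 2 or 3 or spermatogonia array 1, 2 or 3 (highest adjusted p 0.159).

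Few genes of the cell cycle passed the test, those of DNA synthesis as lower and those of division as higher. Over all genes tested, 1.51% fell and 1.53% rose. The counts in these lists are small, and no list was tested as a set. Of 21 licensing genes 1 fell and 16 changes were below 0 (median -0.39); of 23 genes of the replication fork and nucleotide supply 2 fell and 20 changes were below 0 (median -0.31); of 20 genes of G1 cyclins and E2F factors 2 fell (median -0.29). E2f2, an activator of S phase genes, was at 4.39, 4.16 and 4.57 in leptotene/zygotene, against 7.87, 8.49, 9.02 and 6.82 in spermatogonia. All spermatogonia arrays were higher, by 12.8-fold on average (-3.68 ± 0.43, adjusted p = 0.000285), and the call held without any 1 array. Pre-leptotene cells stood between them at 6.99 ± 0.47 (SD, n = 3). E2f3, its relative, was at 5.08, 5.88 and 5.87 in leptotene/zygotene, against 6.77, 7.21, 7.83 and 6.55 in spermatogonia (-1.48 ± 0.31, adjusted p = 0.02). Tk1, the thymidine kinase of S phase, was at 7.06, 7.19 and 7.06 in leptotene/zygotene, against 8.39, 8.89, 9.29 and 8.17 in spermatogonia (-1.58 ± 0.27, adjusted p = 0.0104). Both genes were separate between fractions. Rrm2, the regulated subunit of ribonucleotide reductase, fell by 1.20 ± 0.28 on the log2 scale (adjusted p = 0.0332). Cdc6, which loads the replicative helicase, was at 9.42, 9.83 and 9.74 in leptotene/zygotene, against 10.57, 10.65, 11.39 and 10.72 in spermatogonia (-1.17 ± 0.24, adjusted p = 0.0199). Tk1 missed the threshold without leptotene/zygotene array 3 (adjusted p = 0.0531), E2f3 without any 1 leptotene/zygotene array (highest 0.0656), Cdc6 also without spermatogonia array 3 (highest 0.0777), and Rrm2 without leptotene/zygotene array 2 or 3 or spermatogonia array 1, 2 or 3 (highest 0.133). Without spermatogonia array 3, Cdc6 kept an adjusted p of 0.0414 but its change was -0.98, under the minimum size.

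The E2F motif TTCCCGC was in 5.44% of the promoters of genes that fell, 4.61% of those that rose and 8.30% of all, and the form TTGGCGC in 1.36%, 3.29% and 4.42%. The promoter of Cdc6, a textbook E2F target, is shown because it holds the first form on the opposite strand (GCGGGAA, in capitals). The match begins 138 bases before the start used, and both lie within the outer coordinates listed for Cdc6.
Cdc6: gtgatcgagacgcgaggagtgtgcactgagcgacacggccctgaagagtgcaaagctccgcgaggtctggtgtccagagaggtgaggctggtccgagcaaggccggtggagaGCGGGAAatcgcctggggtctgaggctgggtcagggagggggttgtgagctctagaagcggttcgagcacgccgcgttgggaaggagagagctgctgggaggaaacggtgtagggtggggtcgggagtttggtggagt
It lies at chr11:98907901-98908150 (plus strand). The share of promoters with either E2F form was lower among the genes that fell than over all genes tested.

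For chromosome segregation, only the RNA levels of genes of mitotic division were measured. Of 24 genes of mitotic division 2 rose, none fell, and 23 of the 24 changes were above 0 (median 0.60). Cenpf, a kinetochore protein of G2 and M phase, was at 12.87, 13.49 and 13.44 in leptotene/zygotene, against 12.27, 11.55, 12.23 and 12.56 in spermatogonia (1.11 ± 0.28, adjusted p = 0.0414). Kif2c, a microtubule depolymerase of the centromere, was at 10.85, 10.44 and 10.61 in leptotene/zygotene, against 10.08, 9.32, 9.62 and 9.51 in spermatogonia (1.0 ± 0.23, adjusted p = 0.0315). Both were separate, and 13 of the 24 genes had leptotene/zygotene arrays above all spermatogonia arrays, against 6.30% of all genes tested. Leptotene/zygotene arrays lay below all spermatogonia arrays for 6 of 21 licensing genes and 6 of 23 replication fork and nucleotide genes. The same held for 7 of 20 genes of G1 cyclins and E2F factors, against 5.77% of all genes tested. In these 3 lists, 1 gene, of licensing, lay fully above. Aurka, the Aurora kinase of the spindle poles, changed by 1.52 and did not pass (adjusted p = 0.0652). Mki67, a marker of all cycling phases, was at 12.19, 12.92 and 12.33 in leptotene/zygotene, against 12.05, 12.19, 13.14 and 11.68 in spermatogonia (0.22 ± 0.34, adjusted p = 0.867). Ccnf, the cyclin of the SCF ubiquitin ligase (1.42 ± 0.26), Bub3, of the spindle checkpoint (1.26 ± 0.26), and Prc1, which bundles spindle microtubules (1.24 ± 0.30), were in no list and were named after their values were seen; all rose. Ccnf (highest adjusted p 0.0657) and Bub3 (0.0921) missed the threshold without leptotene/zygotene array 2 or 3, and Prc1 (0.195) also without spermatogonia array 1 or 2. Cenpf missed it without leptotene/zygotene array 2 or 3 or spermatogonia array 1, 2 or 3 (highest adjusted p 0.18), and Kif2c without any 1 leptotene/zygotene array or spermatogonia array 2 or 3 (0.122). Without spermatogonia array 4, Kif2c kept an adjusted p of 0.026 but its change of 0.96 was under the minimum size.

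**Figure D4:**
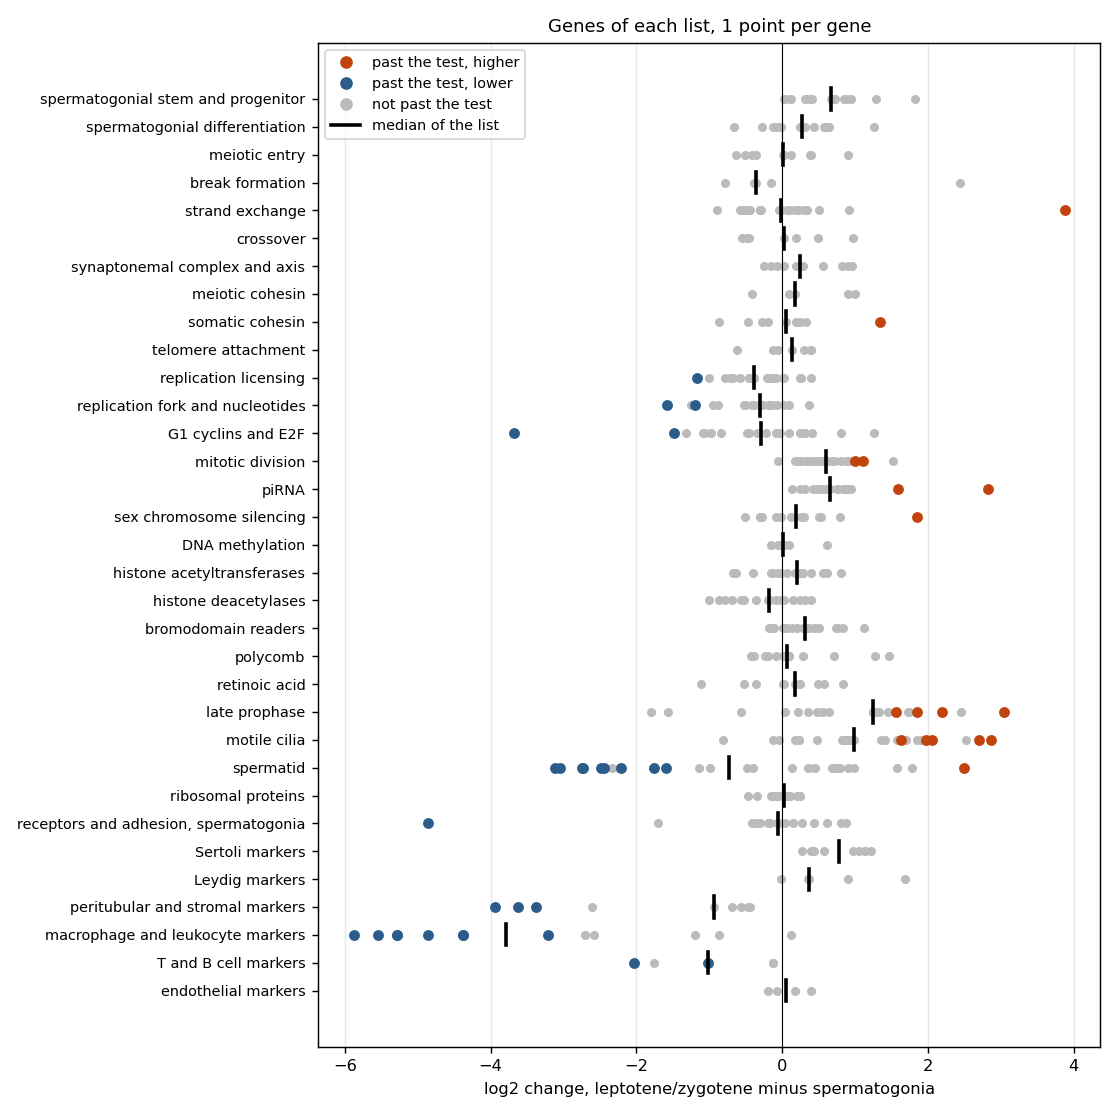
Log2 change, leptotene/zygotene minus spermatogonia, of the measured genes of 33 lists, 1 point per gene, with the median of each list as a black bar; orange genes passed the test as higher and blue genes as lower. Late prophase and motile cilia genes lie mainly above 0, leukocyte markers mainly below.

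The largest falls included markers of leukocytes. Of 14 macrophage and leukocyte markers 8 fell, where 1.51% of all genes tested did, and the median change was -3.79, or -2.62 with levels below log2 4 set to 4. Ptprc, the common leukocyte antigen CD45, was at 2.70, 2.63 and 2.71 in leptotene/zygotene, against 7.66, 6.99, 7.84 and 9.39 in spermatogonia. Every leptotene/zygotene array lay below log2 4, so its change is a bound of at most -3.97 (adjusted p = 7.78e-05). Lyz1 and Lyz2, the neighbouring lysozyme genes, are close copies whose probe sets may share signal. Lyz1 was at 5.20, 4.35 and 4.58 in leptotene/zygotene, against 10.39, 10.24, 10.36 and 11.38 in spermatogonia, 59.0-fold higher there (-5.88 ± 0.69, adjusted p = 0.000285). Lyz2 was at 3.45, 3.30 and 3.61 in leptotene/zygotene, against 7.68, 8.89, 9.17 and 10.28 in spermatogonia (at most -5.01, adjusted p = 0.000124). S100a4, a calcium-binding protein of leukocytes and stroma, was below log2 4 in leptotene/zygotene and at 6.70 to 9.12 in spermatogonia (at most -3.86, adjusted p = 7.78e-05). These genes separated the fractions fully and passed whichever array was left out.

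Of the other largest falls, Cd74, the invariant chain of MHC class II, was at 7.14, 3.61 and 5.03 in leptotene/zygotene, against 11.54, 10.10, 8.65 and 11.87 in spermatogonia (-5.28 ± 1.08, adjusted p = 0.0199). The class II genes H2-Aa (-5.21 ± 1.29) and H2-Eb1 (-4.70 ± 0.98), the lysosomal protease gene Ctss (-4.86 ± 1.02), the chemokine gene Cxcl2 (at most -4.34), the signalling adaptor gene Tyrobp (at most -2.96) and Cd14, a coreceptor for bacterial lipopolysaccharide (at most -2.89), did the same. Csf1r, the macrophage growth factor receptor, is also used to mark spermatogonial stem cells. It was at 2.92, 2.41 and 2.40 in leptotene/zygotene, against 9.53, 6.86, 5.52 and 7.84 in spermatogonia (at most -3.44, adjusted p = 0.0407). None of these overlapped. Cxcl2, Tyrobp and Cd14 missed the threshold without leptotene/zygotene array 2 or 3 (highest adjusted p 0.0571, 0.0571 and 0.0691), Cd74 (0.101), Ctss (0.0983) and H2-Eb1 (0.0963) also without spermatogonia array 1, and H2-Aa (0.176) also without spermatogonia array 1 or 2. Csf1r missed it without spermatogonia array 2 or any 1 leptotene/zygotene array (highest adjusted p 0.158). Without spermatogonia array 1 or 4 the rule of the highest mean took another probe set of Csf1r, which did not pass (adjusted p 0.349 and 0.233), so that the probe sets of this gene disagree.

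The summed intensity of the 14 leukocyte markers was 293, 107 and 158 in leptotene/zygotene, against 6954, 3469, 2731 and 9350 in spermatogonia, and 10 of the 14, among them Ptprc, Cd68, Adgre1, Csf1r and C1qa, were below log2 4 on every leptotene/zygotene array. In bulk samples, fewer cells of a type and less RNA per cell cannot be told apart. Of 5 T and B cell markers 2 fell, Cd3e (-1.02 ± 0.25, adjusted p = 0.0377) and Cd3g (at most -0.52, adjusted p = 0.03), both subunits of the T cell receptor complex. Cd3e missed the threshold without any 1 leptotene/zygotene array or spermatogonia array 1, 2 or 3 (highest adjusted p 0.2), and Cd3g without any 1 leptotene/zygotene array or spermatogonia array 2 or 3 (0.124). Of 9 peritubular and stromal markers 3 fell, all of extracellular matrix. The share that fell over all genes tested was 1.51%. Dcn, which encodes decorin, was at 6.31, 5.35 and 7.90 in leptotene/zygotene, against 9.27, 10.68, 8.49 and 13.42 in spermatogonia (-3.94 ± 1.03, adjusted p = 0.0481). The collagen genes Col3a1 (-3.63 ± 0.70) and Col1a2 (-3.38 ± 0.70) followed, and spermatogonia array 4 was the highest for all 3 genes. The summed intensity of the list was 2034, 570 and 1414 in leptotene/zygotene and 2957, 4053, 1237 and 17108 in spermatogonia, so the fractions overlapped in it. Dcn missed the threshold without any 1 leptotene/zygotene array or spermatogonia array 1 or 2 (highest adjusted p 0.184), and Col3a1 (0.0796) and Col1a2 (0.0899) without leptotene/zygotene array 2 or 3.

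None of 10 Sertoli markers, 5 Leydig markers or 4 endothelial markers passed. Sertoli markers were all above 0 (median 0.77), with a summed intensity of 10259, 15383 and 9303 in leptotene/zygotene and of 5543, 7451, 6315 and 7086 in spermatogonia, so that the sums did not overlap. Inha, the inhibin alpha subunit, was at 8.44, 8.27 and 7.70 in leptotene/zygotene, against 7.03, 7.12, 6.91 and 6.59 in spermatogonia (1.22 ± 0.50, adjusted p = 0.213). Cyp17a1, a steroid enzyme of Leydig cells, was at 7.36, 7.39 and 7.42 in leptotene/zygotene, against 5.75, 5.11, 5.12 and 6.85 in spermatogonia (1.68 ± 0.65, adjusted p = 0.181). Both were separate between fractions but short of the threshold. The part of these other cells in the germ cell results was not tested.

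**Figure D5:**
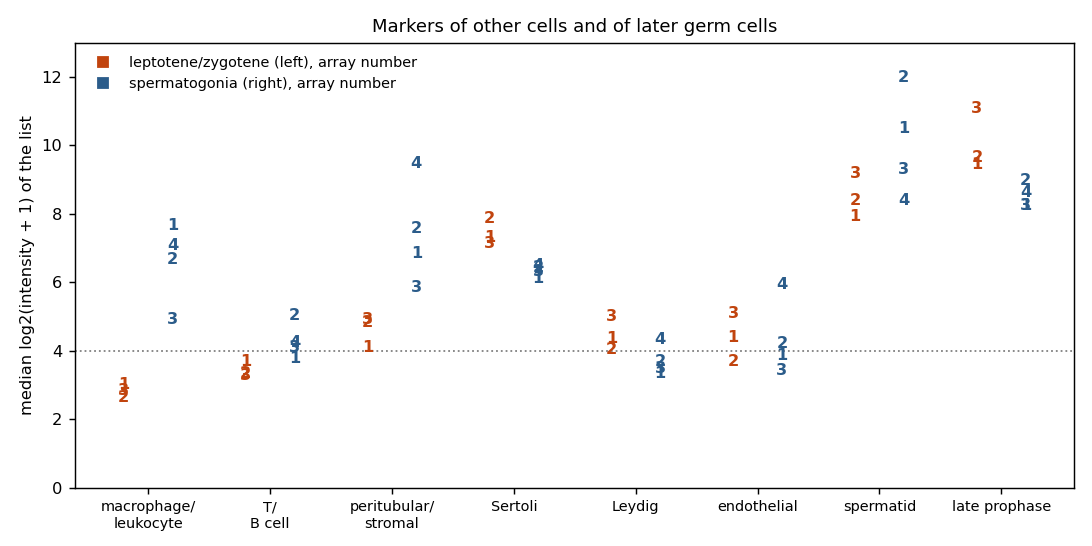
Median log2(intensity + 1) of the marker lists on each array, with the array's number as its symbol: leptotene/zygotene on the left in orange and spermatogonia on the right in blue; the dotted line is log2 4. Leukocyte markers are 2.63 to 3.01 in leptotene/zygotene and 4.91 to 7.67 in spermatogonia, and spermatid genes are highest on spermatogonia arrays 2 and 1.

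Genes of elongating and round spermatids, the haploid cells after meiosis, fell in part. Of 30 spermatid genes 9 fell, 1 rose and 20 did not pass (median -0.74). Over all genes tested, 1.51% fell and 1.53% rose. Spem1, needed to shed sperm cytoplasm, was at 7.20, 6.46 and 6.91 in leptotene/zygotene, against 10.55, 12.56, 9.16 and 7.65 in spermatogonia (-3.12 ± 0.82, adjusted p = 0.0495). Tssk6, a testis kinase of sperm, was at 8.91, 7.73 and 7.96 in leptotene/zygotene, against 12.01, 13.14, 10.00 and 9.85 in spermatogonia (-3.05 ± 0.65, adjusted p = 0.0224). Spermatogonia arrays 1 and 2 were the highest for both genes. Akap4, of the fibrous sheath of the sperm tail, was at 10.08, 9.95 and 10.00 in leptotene/zygotene, against 13.38, 14.30, 12.32 and 10.98 in spermatogonia (-2.73 ± 0.55, adjusted p = 0.0197), and the kinase gene Tssk3 changed by -2.75 ± 0.59. Tnp1 and Prm2, which replace histones in spermatid chromatin, changed by -1.60 ± 0.40 and -1.76 ± 0.39. They stayed high in leptotene/zygotene, Tnp1 at 12.99, 12.43 and 12.43, against 14.80, 15.23, 13.75 and 13.09 in spermatogonia. Acr, the acrosome protease gene, went the other way, at 7.60, 8.35 and 10.10 in leptotene/zygotene, against 5.32, 7.42, 5.24 and 6.78 in spermatogonia (2.49 ± 0.63, adjusted p = 0.0454). The summed intensity of the 30 genes was 58967, 40965 and 49467 in leptotene/zygotene, against 208334, 321930, 103285 and 63256 in spermatogonia.

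None of the 9 spermatid genes passed as lower when spermatogonia arrays 1 and 2 were left out together. The same was so without spermatogonia array 1 alone and without leptotene/zygotene array 2 or 3, whereas 5 of the 9 passed without spermatogonia array 2, 7 without array 3, 9 without array 4 and 4 without leptotene/zygotene array 1. Spem1 and Tnp1 missed the threshold without any array except spermatogonia array 4 (highest adjusted p 0.173 and 0.18), Tssk6 without leptotene/zygotene array 2 or 3 or spermatogonia array 1 (0.112), Tssk3 also without leptotene/zygotene array 1 (0.0857), and Akap4 (0.0833) and Prm2 (0.133) without leptotene/zygotene array 2 or 3 or spermatogonia array 1 or 2. Without spermatogonia array 2, Akap4 was read from another of its probe sets. Acr missed it without leptotene/zygotene array 2 or 3 or spermatogonia array 1 or 3 (0.245). Over the whole comparison, 62 genes were higher and 61 lower without spermatogonia arrays 1 and 2, of which 53 and 49 were among the 200 and 198.

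The 198 genes that fell could be set against arrays outside the comparison. The round spermatid mean was at least log2 4 for 136 of them (68.7%, against 85.5% of all genes tested), and the Spo11-/- spermatogonia array, from mice whose spermatocytes do not reach the spermatid stage, for 82 (41.4%, against 77.1%). Of the 198, 51 reached log2 4 both in round spermatids and on the Spo11-/- spermatogonia array, and 85 in round spermatids alone. Another 31 reached it on that array alone, and 31 in neither. Ptprc was at 6.93 and E2f2 at 6.28 on the Spo11-/- spermatogonia array, with round spermatid means of 2.71 and 3.15. Akap4 was at 3.24 and Tnp1 at 2.71 on that array, with round spermatid means of 12.55 and 14.32. The genes that fell thus included some at high levels in spermatids and some below log2 4 there.

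No regulator of chromatin in the lists passed. None of 19 histone acetyltransferase genes, 16 histone deacetylase genes, 19 bromodomain genes, 15 polycomb genes or 6 DNA methylation genes passed. Ep300, the acetyltransferase p300, was at 10.66, 10.32 and 10.66 in leptotene/zygotene, against 10.27, 9.90, 10.56 and 10.62 in spermatogonia (0.21 ± 0.24, adjusted p = 0.772). Brdt, the testis reader of acetylated histones, was at 8.32, 8.76 and 9.39 in leptotene/zygotene, against 8.41, 9.46, 7.90 and 8.18 in spermatogonia (0.34 ± 0.34, adjusted p = 0.738). Pcgf6, of a polycomb complex that represses meiotic genes, came nearest (1.46 ± 0.39, adjusted p = 0.0546). No gene of meiotic entry (10 measured), retinoic acid (11) or ribosomal proteins (19) passed either, and Meiosin was not measured here. Over the 15 germ cell and chromatin lists without a call, 21 of 175 genes had an unadjusted p below 0.05. Over all genes tested, 2199 of 13087 did. A p that misses the threshold does not show that levels were equal.

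Genes on the X chromosome, which is silenced in pachytene, were lower in leptotene/zygotene by an amount within the spread of arrays. Measured as the distance of the median of 419 X-linked genes from the median of 12586 autosomal genes, in log2 units, the X chromosome stood at -0.37, -0.76 and -1.08 in leptotene/zygotene, against -0.13, -0.47, -0.27 and -0.63 in spermatogonia. The ranges overlapped, and the difference of -0.36 had a two-sided exact permutation p of 0.171, where 3 against 4 arrays allow no p below 0.0571. In mid-pachytene the value was -1.72 and -2.38. Of the 419 X-linked genes 2 rose and 11 fell, against 196 and 187 of the 12586 autosomal genes. The 11 included genes high in round spermatids, such as Akap4 (mean 12.55), and others below log2 4 there, such as Fam120c (2.62). Fam120c changed by -1.38 ± 0.24 (adjusted p = 0.0107) and passed whichever array was left out. Among the 11 were Akap4 and Cybb, a subunit of the leukocyte NADPH oxidase that was below log2 4 on every leptotene/zygotene array and at 7.24, 5.97, 4.96 and 6.95 in spermatogonia. Fundc1, a mitochondrial receptor, was at 6.43, 6.41 and 6.55 in leptotene/zygotene, against 7.54, 7.56, 7.92 and 7.44 in spermatogonia (-1.15 ± 0.24, adjusted p = 0.0202). Fam120c, Cybb and Fundc1 were named after their values were seen.

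The same contrast in Spo11-/- mice rests on 1 array per fraction. Spo11 itself was at 5.21, 4.30 and 4.80 on the Spo11-/- leptotene/zygotene, spermatogonia and pre-leptotene arrays; whether its probe set lies in the deleted part is not given in the sources used here. Cers3 was at 3.34 in Spo11-/- leptotene/zygotene and at 3.52 in Spo11-/- spermatogonia, Adam2 at 2.39 and 2.91, and Fam181a at 2.17 and 2.14, all below log2 4. Piwil1 was at 6.86 and 5.70, and Meiob at 6.51 and 6.04. E2f2 was at 4.10 and 6.28, a difference in the wild-type direction. Ptprc was at 2.76 and 6.93. The other macrophage and leukocyte markers that fell in wild type, of the 14 listed, did not follow it by 1 or more. Lyz1 was at 4.73 and 3.19, and Cd74 at 4.90 and 3.97. Lyz2, Csf1r, Cd14, Tyrobp and Fcer1g were below log2 4 on both arrays. Outside that list, S100a4 was at 2.81 and 8.19 and Cd3e at 3.41 and 6.19, both in the wild-type direction. Cd3g was below log2 4 on both arrays (2.58 and 3.02). The median of the 14 leukocyte markers was 2.78 in Spo11-/- leptotene/zygotene and 2.89 in Spo11-/- spermatogonia. Of the 200 genes that rose in wild type, 40 differed by at least 1 in the same direction between the Spo11-/- arrays (20%, against 6% of all genes tested). In the other direction 8 did (4%, against 4.28%). Of the 198 that fell, 37 differed by at least 1 in the same direction (18.7%, against 4.28%) and 11 in the other (5.56%, against 6%). Many could hardly show a change: 107 of the 198 and 59 of the 200 were below log2 4 on both Spo11-/- arrays. Over all 13087 genes tested, 2559 were. No gene passed limma's test of the difference between genotypes in this change, with the lone arrays assumed to vary like the wild-type ones, and 444 had an unadjusted p below 0.05.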

How the data were processed

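The deposited values are Affymetrix intensities on a linear scale, made by the authors with GCRMA per the submitters' processing notes (version not given in the sources used here). GCRMA models background and normalizes arrays together, so low levels are compressed. They were used as log2(deposited intensity + 1). Of 45037 probe sets, 34945 had 1 gene symbol, 932 several and 9160 none; the probe set with the highest mean stood for each of 18193 genes. Genes at log2 4 or more in at least 2 of the 20 wild-type arrays (13087) were fitted with limma 3.58.1 (R 4.3.3), 1 mean per fraction, with Benjamini-Hochberg adjustment; the code was tested on simulated data. The p-values and SEs measure a spread pooled over all 20 wild-type arrays, so fractions outside the contrast share in it. Stra8 had an SE of 0.79, with SDs of 0.26 in leptotene/zygotene, 0.68 in spermatogonia and 2.04 in round spermatids. Ptprc had an SE of 0.52, with an SD of 1.01 in spermatogonia and 0.03 in round spermatids. The number of arrays limits precision. Where every array of a fraction lay below log2 4, the change is a bound: the other fraction's mean against 4.

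Members and lists were chosen with earlier results of these data known. Named genes are the 15 largest rises and 12 largest falls whose arrays do not overlap, predicted genes left out, up to 4 called or 2 uncalled members of each list, and a few meiotic genes; the others named were chosen after their values were seen. Red blood cell markers passed the filter for 0 genes. Alternatives covered filters, probe sets, normalization, pseudocount 16, spread, arrays left out and a replicate block. Promoters are RefSeq's (GRCm38.p6), at the first start listed per gene.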

Additional observations from a re-analysis of the deposited data

Results flagged for a closer look

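Of 128 genes and list medians looked at over the 4 spermatogonia arrays, 9 had 1 array far from the other 3, and chance alone gives about 1 in 20. Array 4 stood apart and high for Lyz1 (11.38), Cbx7 (6.67), Cyp26a1 (3.92), Hsd3b1 (4.02) and Tek (5.10). Array 2 stood apart for Meikin (3.06), and array 1 for Inhbb (5.20) and Cd3g (2.60). Array 3 had the lone median level of the replication licensing list (10.58). No leptotene/zygotene group was looked at, since it holds 3 arrays.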

How the results depend on the processing

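No named gene past the test changed sign under any alternative run; of the 398 genes called, 1 changed sign with the probe set of the highest mean over the 7 arrays, and 1 in each of the fits on 7 and on 10 arrays. The 200 genes higher and 198 lower became 108 and 97 with no filter on low values, 117 and 126 with the mean of all probe sets of a gene, 566 and 663 with array weights, 5 and 12 in the fit on the 7 arrays alone and 9 and 10 in the fit on the 10 arrays of spermatogonia, pre-leptotene and leptotene/zygotene. Without spermatogonia arrays 1 and 2 they were 62 and 61, and among genes not higher in a later fraction 22 and 126. Leaving out 1 array at a time gave 25 to 486 higher and 15 to 549 lower. With a replicate block, 535 were higher and 584 lower. Deviations of same-numbered arrays of the fractions correlated at 0.59, -0.24 and -0.27 over 13087 genes, so the numbers were not taken to pair them. Differently numbered arrays correlated at -0.39 to 0.46, highest for leptotene/zygotene array 2 with spermatogonia array 3, and such pairs were not modelled. The X-linked difference of -0.36 ran from -0.54 to -0.19 without 1 array. Of 1147 values of the 51 named genes past the test, 832 stayed past it and 315 did not; of 956 values of the 43 others, 32 passed. Except where an alternative tests fewer genes or arrays, the cause was not tested. Levels near log2 4 limit what low genes can show.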
